A study of Mus musculus with 32 samples.

Results

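The genes described here encode the hypothalamic peptides vasopressin (Avp), oxytocin (Oxt), corticotropin-releasing hormone (Crh) and thyrotropin-releasing hormone (Trh), the receptors Avpr1a, Oxtr, Crhr1, Crhr2 and Trhr, and the CRH-binding protein Crhbp. These 10 genes were taken by Ensembl identifier and GRCm38 symbol from a table of 55401 genes, and each of the 10 was found. The table came from stranded paired-end RNA sequencing of the hypothalamus of 32 male C57BL/6NTac mice. On control diet there were 7 wild-type littermates (WT_CD) and 8 hemizygous Gpr101 knockouts (KO_CD), and on high-fat diet 8 wild types (WT_HFD) and 9 knockouts (KO_HFD). The high-fat diet supplied 60% of its energy as fat and began at 7 weeks of age, after standard chow in all groups. The knockout is not restricted to a cell type by any label, and each library came from a separately numbered mouse. Tissue was taken at 149 or 150 days, and age ran largely with diet. The 13 mice taken at 149 days comprised 6 of WT_CD, 1 of WT_HFD, 5 of KO_CD and 1 of KO_HFD, and the remaining 19 were taken a day later.

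Vasopressin and oxytocin are made by large neurons of the paraventricular and supraoptic nuclei that release them into the blood from the posterior pituitary, where vasopressin retains water in the kidney and oxytocin drives milk ejection and labour. Vasopressin is also made in the suprachiasmatic nucleus, the circadian pacemaker. The CRH and TRH that drive the adrenal and thyroid axes through the anterior pituitary come from smaller paraventricular neurons. Each is held back by the hormone at the end of its axis. In libraries of the hypothalamus, reads of Crh and Trh need not come from those neurons alone. Gpr101, the gene deleted here, encodes an X-linked orphan receptor that couples to Gs.

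Each library held between 25.3 and 34.2 M reads on genes (M, megareads; median 27.7 M), and any 2 libraries correlated at 0.985 to 0.989 in their log2 values. Gpr101 averaged 101 CPM (reads per megaread on genes) in WT_CD and 102 CPM in WT_HFD, while KO_CD held 0 reads in all and KO_HFD held 1. The 10 genes that define the hypothalamus in the list used here, among them Sim1, Otp, Hcrt, Agrp and Pomc, were all detected and together made up 443 to 601 CPM. The 10 pituitary genes together made up 3.37 to 19.3 CPM, and Lhb was at 0 in every library. Values below are normalized read counts, that is, reads divided by the authors' library size factor, unless another scale is named. In such tissue samples fewer cells of a type and less RNA per cell cannot be told apart.

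The sequences of Avp and Oxt are shown first because the genes are close copies and neighbours, and their reads have to be kept apart. Avp (ENSMUSG00000037727) lies at chr2:130580620-130582554 on the minus strand of GRCm38 and Oxt (ENSMUSG00000027301) at chr2:130576173-130577054 on the plus strand. The genes run towards each other with 3565 bases between their ends, and each has 3 exons. The coding sequences are 507 and 378 bases long and match at 86.0% of the aligned bases. In the 36 bases that encode the hormone and the cleavage signal after it, 5 bases differ, shown in capitals:
Avp: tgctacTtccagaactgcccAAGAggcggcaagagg
Oxt: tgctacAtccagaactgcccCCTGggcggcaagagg
The longest run that both coding sequences share has 127 bases and lies in exons 1 and 2, in the part that encodes neurophysin, the carrier protein made with each hormone:
shared run: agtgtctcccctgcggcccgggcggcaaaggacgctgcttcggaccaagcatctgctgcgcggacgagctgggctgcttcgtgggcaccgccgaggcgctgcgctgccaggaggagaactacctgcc
Of all 100-base stretches, 6.86% of those in Avp also occurred in Oxt and 10.04% of those in Oxt also occurred in Avp. No 150-base stretch was shared. How the authors' counting treated reads that match both genes is not given in the sources used here, and an exchange of reads between the pair was not tested.

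The 250 bases before each start site, from RefSeq (GRCm38.p6), are given because Avp passed the test between diets described below and Oxt did not, although the difference between the 2 genes was not itself tested. A promoter entry was matched for 8 of the 10 genes. Capitals mark ATAAA, which both hold once, and the motif TGACC or its reverse complement, which is bound by nuclear receptors:
Avp, chr2:130582589-130582838, minus strand: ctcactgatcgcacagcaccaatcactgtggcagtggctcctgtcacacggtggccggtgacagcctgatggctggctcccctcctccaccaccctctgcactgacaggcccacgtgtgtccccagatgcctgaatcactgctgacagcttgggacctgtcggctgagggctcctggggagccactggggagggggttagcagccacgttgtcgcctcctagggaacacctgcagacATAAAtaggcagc
Oxt, chr2:130575919-130576168, plus strand: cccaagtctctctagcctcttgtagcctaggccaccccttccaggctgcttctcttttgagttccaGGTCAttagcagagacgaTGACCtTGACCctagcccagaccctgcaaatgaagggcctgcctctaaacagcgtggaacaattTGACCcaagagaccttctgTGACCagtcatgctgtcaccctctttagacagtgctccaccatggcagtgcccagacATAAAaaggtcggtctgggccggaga
Searched on both strands, TGACC occurred 5 times before Oxt and was not in the Avp window, while 35.2% of 32851 promoter windows of this length held at least 1 copy. All shares given here count windows with at least 1 copy, and shares by number of copies were not taken. ATAAA was held by 37.3% of windows and lay at -13 before Avp and at -26 before Oxt. The RefSeq start sites differ from the gene ends given above, more so for Avp. The letters CANNTG, the E-box bound by clock and other helix-loop-helix factors, occurred 3 times before Avp and once before Oxt and were held by 66.2% of windows. TGACG, part of the cAMP response element, was in neither window and in 17.8% of all.

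Levels between genes were compared per length, as reads per kilobase of merged exon scaled to the same sum (1 M) in each library. On that scale Avp was highest, at 1697 ± 337 (SD, n = 32), followed by Oxt at 1284 ± 280. Avp exceeded Oxt in 27 of 32 libraries, so the order of these neighbours was not the same in every mouse. Trh followed at 195 ± 19.6 and was below Oxt and above Crhbp in all 32 libraries. Crhbp, a secreted protein that sequesters CRH, stood at 16.5 ± 2.095 and was above Crhr1 in all 32. Next came Crhr1 (11.9 ± 0.993), Crh (10.5 ± 2.36) and Trhr (9.95 ± 1.03). Crh did not separate from its neighbours: Crhr1 exceeded Crh in 22 libraries and Crh exceeded Trhr in 20. Crhr1 and Trhr were not set against each other. Below Crhr1, Crh and Trhr came Avpr1a (7.11 ± 0.781), Oxtr (5.54 ± 0.566) and Crhr2 (4.602 ± 0.428), and Oxtr exceeded Crhr2 in 29 of 32 libraries. The ratio of Avp to Oxt within a library, in normalized counts, had a median of 1.18 in WT_CD, 1.24 in KO_CD, 1.64 in WT_HFD and 1.64 in KO_HFD. Its lowest value was 0.905 in a WT_CD mouse and its highest 2.51 in another WT_CD mouse, so the groups overlapped.

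**Figure D1:**
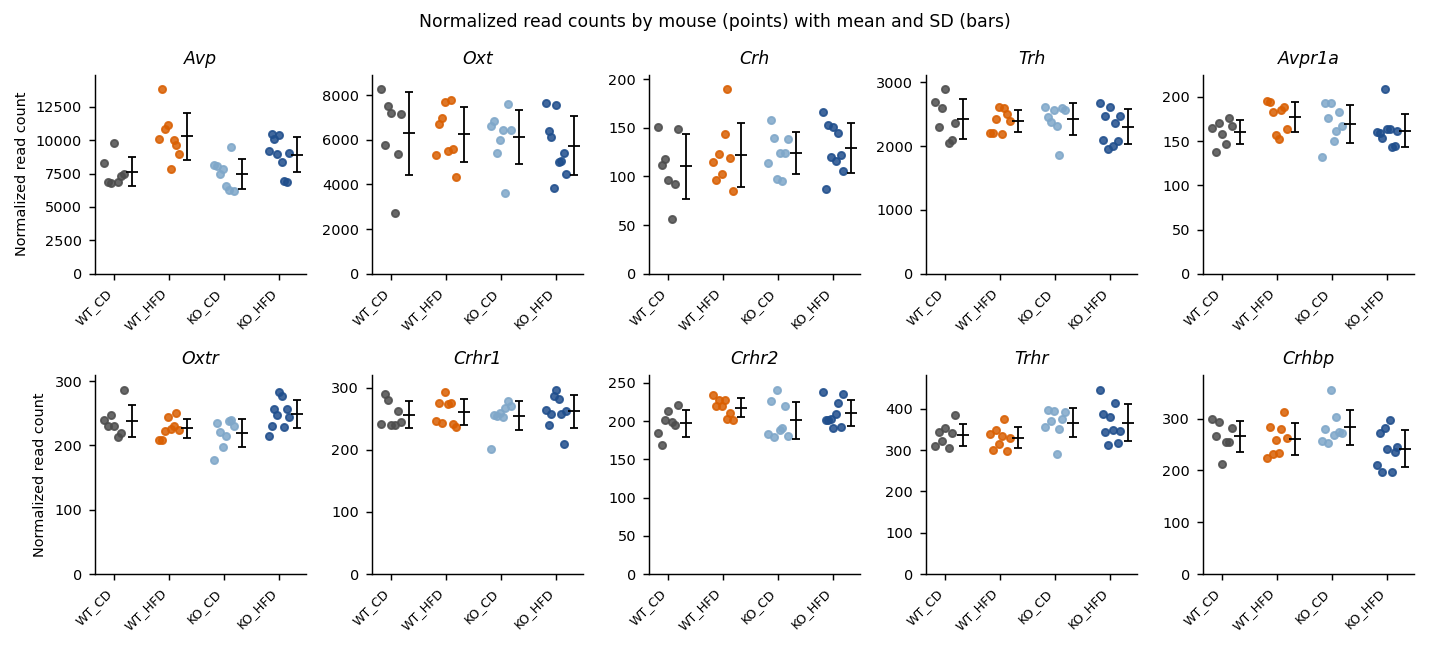
Normalized read count of each of the 10 genes (vertical axis, starting at 0) in each mouse (points) of the 4 groups, with the group mean and SD as bars. Avp lies between 6203 and 9789 in the control-diet mice and between 6904 and 13814 in the high-fat mice, and the groups overlap in every panel.

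All 10 genes passed the filter on low values and entered a limma fit over 19928 genes, with p-values adjusted by the Benjamini-Hochberg method over all of them and called at 0.05. Comparisons that use the same group share its mice, so their values are set side by side and are not independent. Averaged over genotypes, 1 of the 10 genes, Avp, was called between diets, where 0.336% of all genes tested were called, and an unadjusted p below 0.05 was reached by 3 of the 10 against 11.1% of all genes. Averaged over diets, none was called between genotypes (0.00502% of all genes) and 1 of the 10 had an unadjusted p below 0.05, against 5.72% of all genes. None was called in the interaction (0% of all genes), with 1 of the 10 below an unadjusted 0.05 against 3.39%. No gene of the 10 was called between genotypes within control diet (0.00502% of all genes), where 0 of the 10 lay below an unadjusted 0.05 against 4.12%, or within high-fat diet (0.00502%), where 1 did against 5.15%. None was called for diet in wild type (0.0251% of all genes), where 2 of the 10 lay below an unadjusted 0.05 against 7.39%, or in knockout (0.0351%), where 3 did against 7.04%. The limma-voom fit of recovered reads likewise called none of the 10 in those 6 comparisons. The median log2 fold change of the 10 genes was 0.04 for diet averaged over genotypes and -0.01 for genotype averaged over diets, and that of all genes was -0.00076 and -0.0018.

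Avp, the vasopressin precursor gene, was the member called between diets. Its normalized count ran from 6815 through a median of 7338 to 9789 in WT_CD and from 7821 through 10064 to 13814 in WT_HFD. In the knockouts it ran from 6203 through 7649 to 9475 in KO_CD and from 6904 through 9014 to 10481 in KO_HFD. Of the 17 high-fat mice, 15 lay above the median of the control-diet mice and 8 above the highest of them, so the diets overlapped. Averaged over genotypes Avp rose by 0.34 on the log2 scale on high-fat diet (SE 0.08), a 1.27-fold difference with a 95% interval of 1.13 to 1.41 (limma, Benjamini-Hochberg adjusted p = 0.0477). The diet difference was 0.43 in wild type (SE 0.11, adjusted p = 0.38) and 0.25 in knockout (SE 0.11, adjusted p = 0.638), and neither passed alone. The difference between them was -0.17 (SE 0.16, interaction adjusted p = 0.999 by limma). Between genotypes the Avp estimate was -0.03 on control diet (SE 0.11) and -0.20 on high-fat diet (SE 0.11), and in both the 95% interval included 0.

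The call for Avp stood close to the threshold. Leaving out 1 mouse at a time kept the estimate between 0.308 and 0.370, with adjusted p from 0.0221 to 0.0976 (limma, Benjamini-Hochberg), and the call was lost in 26 of 32 such fits. It was kept only without replicates 1 or 7 of KO_CD, 7 or 8 of KO_HFD, 4 of WT_CD or 5 of WT_HFD. Age moved with diet: with age as a term the estimate was 0.37 (SE 0.10) and was not called (adjusted p = 0.242). The WT_HFD mouse of 149 days had 10120 and the KO_HFD mouse of 149 days 9175, against 6815 to 9789 in the 6 WT_CD mice and 6537 to 8127 in the 5 KO_CD mice of that age. Among mice of 150 days the WT_CD mouse had 7465 and the 7 WT_HFD mice 7821 to 13814, while 3 KO_CD mice (6203 to 9475) overlapped 8 KO_HFD mice (6904 to 10481). With so few mice of 1 diet at each age, diet and age could be parted only through those few.

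Oxt, the oxytocin precursor gene, did not pass between diets or genotypes. It ran from 2734 through a median of 7165 to 8260 in WT_CD and from 4349 through 6156 to 7784 in WT_HFD. In the knockouts it ran from 3622 through 6441 to 7611 in KO_CD and from 3840 through 5423 to 7661 in KO_HFD. The 4 ranges overlapped nearly throughout, and the lowest values were those of replicate 5 of WT_CD and replicate 6 of KO_CD. Its diet estimate averaged over genotypes was -0.03 (SE 0.13), with an interval of 0.808- to 1.18-fold. Oxt had the largest spread within groups of the 10 genes, with an SD of 0.38 on the log2 scale against 0.22 for Avp, so these mice could show only larger differences in it.

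Crh (ENSMUSG00000049796, chr3:19693401-19695396, minus strand), the start of the adrenal axis, was the least counted of the 4 peptide genes, with 61 to 207 reads per library. It ran from 55.7 through a median of 112 to 150 in WT_CD and from 85.4 through 117 to 189 in WT_HFD. In the knockouts it ran from 95.5 through 124 to 158 in KO_CD and from 87.2 through 122 to 166 in KO_HFD. The medians lay within the range of every group. The estimate was 0.15 for genotype averaged over diets (SE 0.12, interval 0.939- to 1.32-fold) and 0.11 for diet averaged over genotypes (SE 0.12, interval 0.909- to 1.2796-fold).

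Trh (ENSMUSG00000005892, chr6:92242061-92244650, minus strand), the start of the thyroid axis, varied less within groups than the other peptide genes, with an SD of 0.16 on the log2 scale. It ran from 2049 through a median of 2366 to 2893 in WT_CD and from 2187 through 2405 to 2613 in WT_HFD. In the knockouts it ran from 1862 through 2514 to 2611 in KO_CD and from 1951 through 2365 to 2684 in KO_HFD. The groups lay over each other. The diet estimate was -0.04 (SE 0.06, interval 0.896- to 1.05-fold) and the genotype estimate -0.03 (SE 0.06, interval 0.903- to 1.06-fold).

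**Figure D2:**
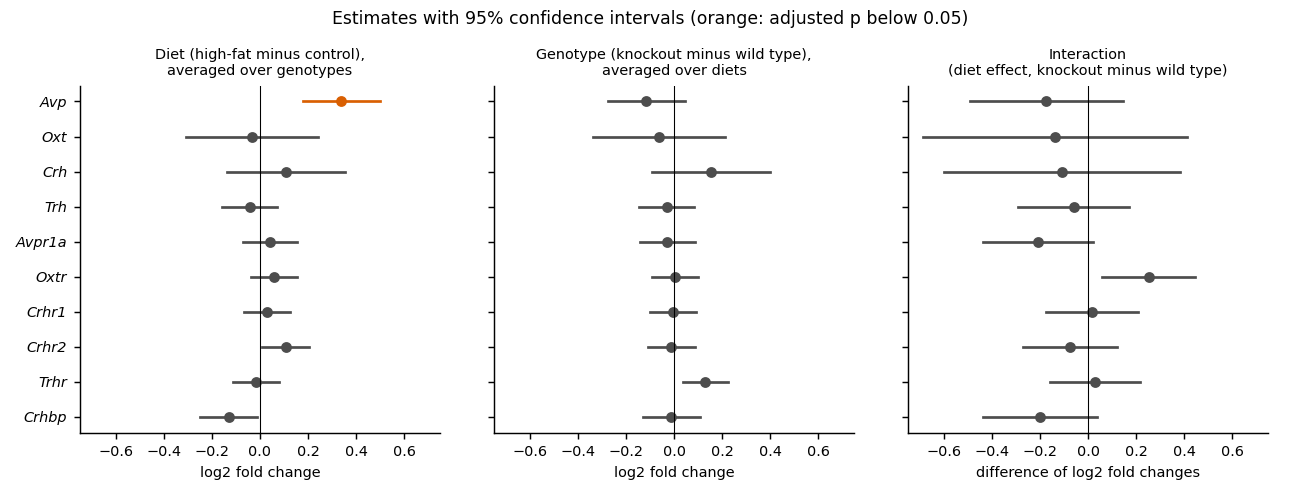
Estimates (points) with 95% confidence intervals (lines) of the log2 fold change for diet and for genotype, and of their interaction, for the 10 genes from the limma fit. The Avp estimate for diet, 0.34, is the one drawn in orange for an adjusted p below 0.05, and the interval of Oxt is the widest in each panel.

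Among the receptors, none passed the adjusted test. Avpr1a (ENSMUSG00000020123, chr10:122448499-122453452, plus strand), the main brain receptor of vasopressin, had medians of 165 in WT_CD, 184 in WT_HFD, 172 in KO_CD and 160 in KO_HFD, within a range of 132 to 209 over all mice. Its diet estimate was 0.15 in wild type (SE 0.08) and -0.06 in knockout (SE 0.08), with an interaction of -0.21 (SE 0.11, limma adjusted p = 0.999).

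Oxtr (ENSMUSG00000049112, chr6:112473683-112489943, minus strand), the oxytocin receptor, ran from 213 through a median of 231 to 287 in WT_CD and from 208 through 225 to 251 in WT_HFD. It ran from 177 through 226 to 239 in KO_CD and from 215 through 248 to 283 in KO_HFD, and 6 of 9 KO_HFD mice lay above every KO_CD mouse. The diet estimate was 0.19 in knockout (SE 0.07, adjusted p = 0.519) and -0.07 in wild type (SE 0.07, adjusted p = 0.872), and the interaction was 0.25 (SE 0.10, limma adjusted p = 0.999). The mean of Oxtr was higher at 150 than at 149 days in each group, a description with no test. The 3 KO_CD mice of 150 days had 230 to 239 and the 5 of 149 days had 177 to 235. The WT_CD mouse of 150 days had 287 against 213 to 247 in the 6 of 149 days. The mice of 149 days on high-fat diet, with 208 in WT_HFD and 215 in KO_HFD, were the lowest of their groups. The diet estimate averaged over genotypes was 0.06 (SE 0.05) and turned to -0.07 (SE 0.05) with age as a term.

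Crhr1 (ENSMUSG00000018634, chr11:104132855-104175523, plus strand), the high-affinity CRH receptor, had medians of 244 in WT_CD, 260 in WT_HFD, 258 in KO_CD and 262 in KO_HFD. Its estimates averaged over the other factor were 0.03 for diet and -0.0033 for genotype (SE 0.05 each), and its ranges overlapped in all groups. Crhr2 (ENSMUSG00000003476, chr6:55090049-55133016, minus strand), the receptor preferred by urocortins, ran from 168 to 221 in WT_CD and from 202 to 234 in WT_HFD, with medians of 198 and 220. It ran from 179 to 241 in KO_CD and from 192 to 238 in KO_HFD, with medians of 190 and 203. Of the 17 high-fat mice 15 lay above the control-diet median and none above the control-diet maximum. The diet estimate of Crhr2 was 0.11 (SE 0.05, limma adjusted p = 0.404).

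Trhr (ENSMUSG00000038760, chr15:44196135-44235912, plus strand), the TRH receptor, had the smallest unadjusted p of the 10 genes for genotype averaged over diets. It ran from 305 through a median of 342 to 384 in WT_CD and from 291 through 373 to 396 in KO_CD. On high-fat diet it ran from 298 through 332 to 374 in WT_HFD and from 313 through 349 to 446 in KO_HFD. On control diet 7 of 8 knockouts lay above the wild-type median, and on high-fat diet 7 of 9 did, with overlapping ranges. The genotype estimate was 0.12 on control diet (SE 0.07) and 0.14 on high-fat diet (SE 0.06), and averaged over diets it was 0.13 (SE 0.05, limma adjusted p = 0.838).

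Crhbp (ENSMUSG00000021680, chr13:95431371-95444924, minus strand) ran from 212 through a median of 267 to 299 in WT_CD and from 224 through 260 to 312 in WT_HFD. It ran from 253 through 274 to 356 in KO_CD and from 197 through 241 to 297 in KO_HFD, and 6 of 9 KO_HFD mice lay below every KO_CD mouse. The diet estimate was -0.23 in knockout (SE 0.08, limma adjusted p = 0.501) and -0.03 in wild type (SE 0.09), with an interaction of -0.20 (SE 0.12). Averaged over genotypes it was -0.13 (SE 0.06, adjusted p = 0.405). The ratio of Crhbp to Crh within a library had medians of 2.38 in WT_CD, 2.24 in WT_HFD, 2.19 in KO_CD and 1.93 in KO_HFD, and ranged from 1.27 to 4.57 over all mice.

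To see whether the peptide genes moved together from mouse to mouse, each log2 value was taken as its deviation from its group mean. Differences between group means by diet or genotype could therefore not enter, while differences in spread could. All 45 pairs of the 10 genes were correlated over 32 mice. By permutation within groups (100000 resamples, Benjamini-Hochberg over the 45 pairs), 2 pairs passed. Oxt and Trh had a Pearson r of 0.72 (permutation p = 4e-05, adjusted 0.0018) and a Spearman rho of 0.75 (permutation p = 1e-05, the smallest the resamples can give, adjusted 0.00045). They lay on the same side of their group means in 23 of 32 mice, as did Avp and Oxt. That count was 22 for Oxt with Crh and for Avp with Trh, and 21 for Crh with Trh. Without the 2 mice farthest from the median of Oxt, the r of Oxt with Trh was 0.62. Within groups r was 0.78 in WT_CD, 0.49 in WT_HFD, 0.91 in KO_CD and 0.64 in KO_HFD, and it was 0.78 in mice of 149 days and 0.66 in mice of 150 days.

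Oxt and Crh had a Pearson r of 0.65 (permutation p = 0.00049, adjusted 0.011) and a Spearman rho of 0.52 (permutation p = 0.00408, adjusted 0.0612), so that the pair passed by one measure and not by the other. Without the 2 mice farthest from the Oxt median r was 0.47. One of these mice, replicate 5 of WT_CD, lay 1.13 below its group mean in Oxt and 0.91 below it in Crh on the log2 scale. Within groups r was 0.91 in WT_CD, 0.45 in WT_HFD, 0.54 in KO_CD and 0.43 in KO_HFD.

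Avp and Oxt, the neighbours, had a Pearson r of 0.47 (permutation p = 0.00784, adjusted 0.118) and a Spearman rho of 0.55 (permutation p = 0.00201, adjusted 0.0452). Within the 4 groups r lay between 0.42 and 0.60. Crh and Trh had an r of 0.47 (permutation p = 0.0104, adjusted 0.118) and Avp and Trh one of 0.41 (permutation p = 0.0244, adjusted 0.179). Avp and Crh had an r of -0.03 (permutation p = 0.863, adjusted 0.947) and lay on the same side of their group means in 15 of 32 mice. No pair of a peptide and its own receptor or binding protein passed. Over all 45 pairs r ranged from -0.25 to 0.72, 32 were above 0, and 10 had an unadjusted permutation p below 0.05. The matching shares over pairs of all genes were not computed, so the counts of pairs cannot be read as particular to these genes.

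**Figure D3:**
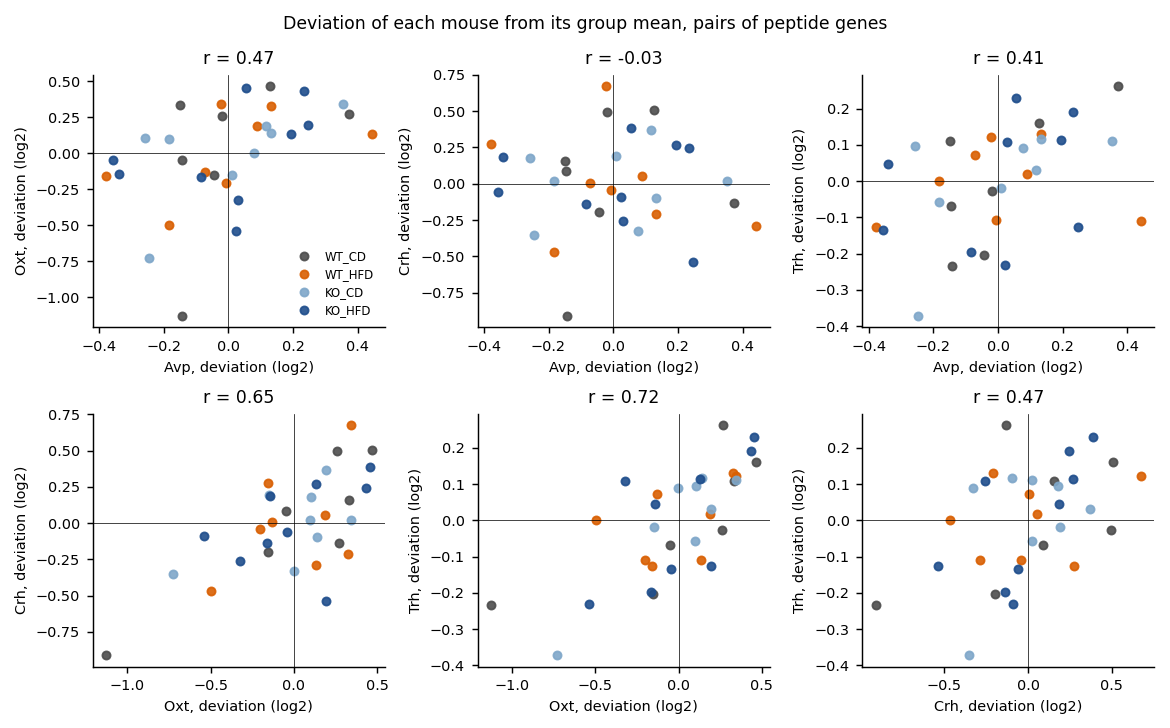
Deviation of each mouse from its group mean (log2) for each pair of the 4 peptide genes, with points coloured by group and Pearson r above each panel. Oxt with Trh (0.72) and Oxt with Crh (0.65) slope upwards, replicate 5 of WT_CD lies at the lower left of both, and Avp with Crh (-0.03) shows no slope.

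Regional marker genes were also correlated with the peptides across the same mice, some lists upwards and others downwards, and their part in the correlations was not tested. These correlations are descriptions over 32 libraries that share depth and scaling within each library. Of 6 transcription factors of the paraventricular and supraoptic nuclei, all 6 had an r above 0 with Oxt and Crh and 5 of 6 with Avp and Trh. Otp, a homeobox gene needed to form these neurons, had an r of 0.59 with Avp, 0.61 with Oxt, 0.30 with Crh and 0.74 with Trh. Pou3f2, required for the CRH, vasopressin and oxytocin neurons in mice, had 0.63 with Crh. The median r of the 6 genes was 0.43 with Oxt, 0.32 with Crh, 0.40 with Trh and 0.27 with Avp. Their summed level correlated with Oxt at 0.58, Crh at 0.53, Trh at 0.39 and Avp at 0.13. In that sum Arnt2 weighs most (mean normalized count 8018), and it had 0.18 with Oxt, 0.27 with Crh, -0.07 with Trh and -0.27 with Avp. The sum ran from 395 to 440 CPM in WT_CD, 402 to 432 in WT_HFD, 397 to 445 in KO_CD and 400 to 432 in KO_HFD. The 4 ranges covered one another.

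Of 10 genes of the suprachiasmatic nucleus, 9 had an r above 0 with Avp and with Trh, and 7 with Oxt and with Crh. The median r of the 10 genes was 0.28 with Avp, 0.37 with Oxt, 0.23 with Crh and 0.48 with Trh. Their summed level had 0.19 with Avp, 0.37 with Oxt, 0.16 with Crh and 0.51 with Trh. Nms, a peptide gene of that nucleus with a mean of 1.43 CPM, was the highest of the list for Trh (0.75), Oxt (0.72) and Avp (0.48). Lhx1 was the lowest for Oxt (-0.35) and for Crh (-0.30). The summed level of the 10 genes ran from 159 to 197 CPM in WT_CD, 159 to 181 in WT_HFD, 155 to 197 in KO_CD and 143 to 191 in KO_HFD. Of the 10 genes that define the hypothalamus, 3 had an r above 0 with Oxt and 4 with Crh, so the list was mixed. Nkx2-1, a transcription factor of the ventral hypothalamus, had an r of -0.66 with Oxt, -0.53 with Crh and -0.02 with Avp. Nr5a1, which marks the ventromedial nucleus, had -0.52 with Oxt and -0.56 with Crh, and Agrp of the arcuate nucleus had -0.54 with Crh. Hcrt of the lateral hypothalamus had 0.15 with Oxt and 0.31 with Crh, and Pmch, the gene of melanin-concentrating hormone, had -0.06 and 0.11. Of the 10 magnocellular genes, 5 had an r above 0 with Oxt, 3 with Crh and 7 with Avp and with Trh. Their median r was -0.02 with Oxt, -0.18 with Crh, 0.11 with Avp and 0.15 with Trh. Their summed level, in which Calb1 and Cartpt weigh most (mean normalized counts 6734 and 4283), had an r of -0.41 with Oxt and -0.50 with Crh. With Avp the sum had 0.12 and with Trh -0.04. Calb1 and Cartpt had -0.33 and -0.46 with Oxt and -0.39 and -0.40 with Crh, so the sum does not stand for all 10 genes. Of the 7 tested choroid plexus genes, 4 had an r above 0 with Crh and 4 with Oxt, with medians of 0.02 and 0.14. The summed level of the 8 listed had an r of -0.56 with Crh and -0.19 with Oxt. In that sum Clic6 and Kl weigh most (mean normalized counts 659 and 294), and they had -0.55 and -0.53 with Crh. Ttr, Folr1, Aqp1 and Otx2 had 0.13, 0.04, 0.02 and 0.40 with Crh, and Kcnj13 had -0.21. The sum therefore does not stand for the whole choroid plexus list.

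**Figure D4:**
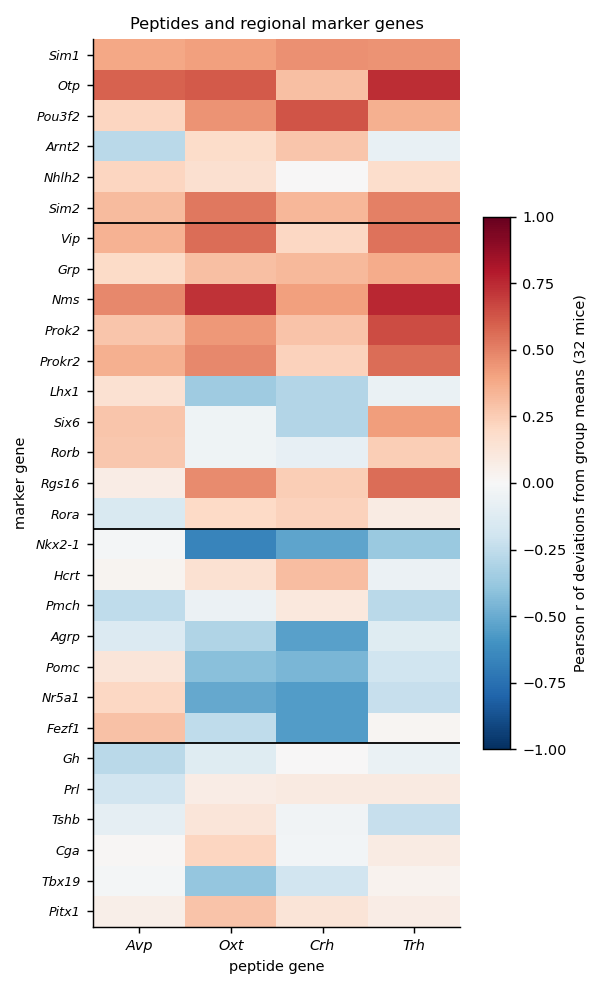
Pearson r (colour, from -1 to 1) of the deviations from group means over 32 mice between the 4 peptide genes (columns) and marker genes (rows) of the paraventricular and supraoptic nuclei, the suprachiasmatic nucleus, other parts of the hypothalamus and the pituitary, in that order between black lines. Otp and Nms are positive in all 4 columns, and Nkx2-1 and Nr5a1 are negative for Oxt and Crh.

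The genes most like each peptide over the 32 mice were read from 14001 genes with a mean of at least 1 CPM, by Pearson r of the deviations, and are given with no test. For Avp they were Dag1 (0.70), C8g (0.66), Slc38a10 (0.63), Lrrc51 (0.60) and Otp, and the most opposed were Fam168b (-0.76) and Gnai3 (-0.72). For Oxt they were Samd3 (0.79), Ucn3 (0.75), Zic4 (0.75), Zic1 (0.74) and Pkib (0.74), and the most opposed were Cacna2d1 (-0.75) and Arpp21 (-0.75). Ucn3 encodes urocortin 3, a ligand of Crhr2. For Crh they included Auts2 (0.72), Smim13 (0.68), Ucn3 (0.68) and Efhd2 (0.67), opposed by Prph (-0.74) and Bckdha (-0.72). For Trh they included Nms, Omp (0.74), Otp and Oxt, opposed by Rnf44 (-0.72) and Dcc (-0.72). Not all of these held within every group. In the group where it was weakest, r was -0.01 for Slc38a10 with Avp, 0.01 for Cacna2d1 with Oxt and -0.05 for Efhd2 with Crh.

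Other genes of the 4 systems were read from lists chosen by function. Of 12 further ligands, receptors and peptidases, 9 passed the filter and none was called in any of the 7 comparisons. Avpr1b, the vasopressin receptor of the anterior pituitary, Ucn and Ucn2 were below the filter, with mean normalized counts of 0.581, 0.928 and 4.46. By unadjusted p the leading genes were Lnpep, the peptidase that cleaves oxytocin and vasopressin, at 0.05 (SE 0.03) and Pgpep1 at 0.05 (SE 0.03) for diet. For genotype they were Trhde, which degrades TRH, at 0.05 (SE 0.04) and Cd38, required for oxytocin release in mice, at -0.04 (SE 0.04).

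None of the 8 genes that process peptide precursors was called. Cpe, the carboxypeptidase that trims cleaved peptides, stood at -0.04 (SE 0.02) and Pcsk1, a prohormone convertase, at -0.04 (SE 0.02) for diet, and Qpct at -0.05 (SE 0.03) and Scg5 at 0.03 (SE 0.02) for genotype. Nor was any of the 6 transcription factors of these nuclei, where Sim2 stood at -0.19 (SE 0.09) and Arnt2 at -0.04 (SE 0.02) for diet and Otp at -0.09 (SE 0.05) and Pou3f2 at 0.04 (SE 0.04) for genotype.

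Of 10 genes of magnocellular neurons, Cartpt was called for diet averaged over genotypes and the other 9 were not. Cartpt, the CART peptide gene, which the arcuate nucleus and lateral hypothalamus also express, ran from 3107 through a median of 4063 to 4482 in WT_CD and from 3945 through 4721 to 5640 in WT_HFD. In the knockouts it ran from 3474 through 3691 to 4125 in KO_CD and from 4034 through 4774 to 5294 in KO_HFD, with overlap in both genotypes. It rose by 0.32 on the log2 scale (SE 0.05, limma adjusted p = 0.00139). Its r with Avp over mice was 0.08. Creb3l1, a transcription factor that activates Avp in rat magnocellular neurons, had an r of 0.57 with Avp, but its diet estimate was -0.14 (SE 0.06, adjusted p = 0.431).

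In the feedback arms, none of 10 tested genes of thyroid hormone response and transport was called (11 listed, Dio3 below the filter), and none of 8 glucocorticoid genes was. Hr, a target of thyroid hormone in brain, stood at -0.12 (SE 0.04, adjusted p = 0.269) for diet and -0.12 (SE 0.04, adjusted p = 0.816) for genotype. Thra, a thyroid hormone receptor, stood at -0.04 (SE 0.02) for diet, and Thrb, the receptor through which thyroid hormone represses Trh, at -0.07 (SE 0.03) for genotype. Tsc22d3, induced by glucocorticoids, stood at 0.14 (SE 0.05) and the glucocorticoid receptor Nr3c1 at 0.05 (SE 0.02) for diet, and Nr3c2 at -0.05 (SE 0.03) and Per1 at -0.10 (SE 0.06) for genotype. Of the 10 suprachiasmatic genes none was called. Grp stood at 0.18 (SE 0.07) and Prokr2 at 0.10 (SE 0.06) for diet, and Rorb at -0.07 (SE 0.03) and Grp at 0.14 (SE 0.07) for genotype.

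Beside the Avp difference between diets, markers of neighbouring tissue were read as summed levels, in which the most counted genes weigh most. Rora, also on the suprachiasmatic list, led the thalamus and habenula list (mean normalized count 1697). Rgs9 (1621) led the list of cortex, striatum and amygdala. Clic6 (659) and Kl (294) led that of choroid plexus, where Ttr had 36.0. The summed markers of thalamus and habenula ran from 112 to 185 CPM on control diet and from 117 to 157 CPM on high-fat diet. Those of cortex, striatum and amygdala ran from 92.6 to 109 CPM on control diet and from 86.2 to 104 CPM on high-fat diet, and those of choroid plexus from 33.8 to 47.2 CPM and from 32.6 to 46.4 CPM. Those of pituitary ran from 3.90 through a median of 6.77 to 11.5 CPM in WT_CD and from 4.77 through 12.998 to 19.3 CPM in WT_HFD, the group with the highest Avp median. They ran from 3.37 through 9.43 to 14.8 CPM in KO_CD and from 4.49 through 7.93 to 11.8 CPM in KO_HFD, so the median was higher on high-fat diet in wild type and lower in knockout. The ranges of the 2 diets overlapped for each list, and no gene of the pituitary list (6 of 10 tested), of the cortex, striatum and amygdala list or of the choroid plexus list (7 of 8 tested) was called in any comparison. Of the thalamus and habenula list and of the hypothalamus list, 1 gene each was called between diets, with Gpr151, a habenular receptor, at 0.67 (SE 0.12, adjusted p = 0.00139) and Hcrt, the orexin gene of the lateral hypothalamus, at -0.36 (SE 0.08, adjusted p = 0.0362) by limma. Their part in the Avp difference was not tested.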

How the data were processed

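The deposited values are log2 values of reads divided by a library size factor, 1 per gene and library. Per the submitters' processing notes, the build was GRCm38 and the tools included STAR 2.7.6a, DESeq2 1.28.1 in R 4.0.2, Trim Galore 0.6.2 with cutadapt 2.10, and FastQC. The counting tool and strand setting were not given in the sources used. Undoing the log returned whole reads for 100% of values within 1e-06 reads.

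Values of log2(normalized count + 1) were fitted with limma 3.58.1 (R 4.3.3, statmod 1.5.0), with an intensity trend and robust moderation, for 19928 genes with a normalized count of at least 10 in at least 7 libraries. All 4 groups entered 1 fit without covariates, tests were two-sided, and adjustment followed Benjamini-Hochberg over those genes. The pseudocount makes fold changes of low genes smaller. The fit was tested on simulated data. Exon lengths and coding sequences came from GENCODE M21, promoters from RefSeq.

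The genes and lists were chosen with earlier results of these data known. Named genes were the 10 members, Gpr101, up to 4 called genes of each list or otherwise the 2 of smallest p for diet and for genotype, and for each peptide the 5 most and 2 least correlated genes with a mean of at least 1 CPM. Genes outside this rule (Creb3l1, Nkx2-1, Nr5a1, Agrp, Pmch, Nms with Oxt and Avp) were chosen after their values were seen. So were genes named for their weight in a sum (Calb1, Clic6, Kl, Rora, Rgs9). The same holds for other list genes given for contrast (Lhx1, Ttr, Folr1, Aqp1, Otx2, Kcnj13). Lists of neighbouring tissue are given mainly as sums. Not every correlated gene taken by this rule is reported here.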

Additional observations from a re-analysis of the deposited data

Results flagged for a closer look

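Each of the 10 genes was checked in each of the 4 groups, 40 checks on the same 32 mice. In 6 of these checks the value of 1 mouse stood apart from the rest of its group by Dixon's 95% criterion, which chance alone meets in about 1 in 20. Oxt was 2734 normalized counts in replicate 5 of WT_CD, where the group median was 7165, and 3622 in replicate 6 of KO_CD, where the median was 6441. Trh was 1862 in that same KO_CD mouse, against a median of 2514, and there Avp (6254) and Crh (95.5) also lay below their group means. Avpr1a was 209 in replicate 4 of KO_HFD, against a median of 160. Crhr1 was 201 in replicate 1 of KO_CD, against a median of 258, and Avpr1a and Oxtr were also lowest there, at 132 and 177. Trhr was 291 in replicate 5 of KO_CD, against a median of 373.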

How the results depend on the processing

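Outside the settings that left out 1 or 2 mice, 923 results kept their direction and their side of the threshold, 7 reversed, 8 lost and 2 gained a call, and 5 counts moved; sign changes with both estimates within 1 SE of 0 were not counted. The diet call of Avp (estimate 0.34, adjusted p = 0.0477 by limma) gave way to 0 of the 10 genes called under upper-quartile scaling (0.34, adjusted p = 0.0525), without the filter (0.34, adjusted p = 0.104, with 41338 genes of the whole table tested) and with age as a term (0.37). It held under limma-voom on recovered reads, library-total scaling, pseudocounts of 0.5 and 8, and library numbers in runs of 8. Leaving out each mouse gave 0 to 1 of the 10 genes called for diet averaged over genotypes. With age as a term the diet estimate of Oxtr turned to -0.0708. Within mice of 149 days and within mice of 150 days, 0 pairs passed. Correlations that changed sign were Avp with Oxtr (0.20 with runs of 8), Avp with Crhr1 (-0.49 at 149 days), Trh with Crhr1 (0.22 with the replicate block), Trh with Crhbp (0.0282 at 149 days), Avpr1a with Trhr (-0.28 at 150 days) and Trhr with Crhbp (0.0536 at 149 days). Over the whole table, the count for diet averaged over genotypes was 67 in the fit as reported, 43 without the filter, 12 with age as a term and 45 with the replicate block. The cause was not tested.

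Replicate numbers did not pair the mice: over 2000 genes, 3 of 32 libraries correlated best with their own number. With the replicate block the Avp diet estimate was 0.36 (adjusted p = 0.0409), 1 of the 10 genes was called, and Crh with Trh passed (r = 0.54, adjusted permutation p = 0.0324). Crh, with the fewest reads, and Oxt, with the largest spread, were the genes in which the data could show least.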
